A study of Sus scrofa with 20 samples.

Results

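The antioxidant genes described here are 10 genes whose products remove superoxide and peroxides, or recharge or control the enzymes that do so: the superoxide dismutases SOD1, SOD2 and SOD3, the glutathione peroxidases GPX1, GPX3 and GPX4, the reductases GSR and TXNRD1, the peroxiredoxin PRDX3 and the transcription factor NFE2L2. They were chosen by name, and every probe set annotated with one of these symbols was taken, which gave 20 probe sets for 10 of the 13668 genes represented on the array. A gene was read from its probe set of highest mean over all arrays, and its other probe sets are given beside it, numbered by falling mean. All 10 brightest probe sets passed the filter on low values, as did 17 of the 20 probe sets.

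Muscle of the back (M. longissimus) was taken from 20 female pigs, 10 with low residual feed intake (RFI), the more feed-efficient animals, and 10 with high RFI. Breed, age, litter and batch were not given in the labels, and no treatment is named. RNA was copied into DNA, labelled with biotin and hybridised to single-colour Affymetrix arrays. Each array is taken as 1 animal.

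Cells make superoxide mainly at the mitochondrial respiratory chain and at oxidases of the membrane. Superoxide dismutases convert it to hydrogen peroxide, SOD1 with copper and zinc in the cytosol, SOD2 with manganese in the mitochondrial matrix and SOD3 outside the cell. Glutathione peroxidases, which carry selenocysteine in GPX1, GPX3 and GPX4, and peroxiredoxins then reduce the peroxide with glutathione and thioredoxin. With NADPH, GSR recharges glutathione and TXNRD1 the thioredoxin of the cytosol. NFE2L2, also called NRF2, is the factor that switches on many of these genes when its inhibitor KEAP1 lets it go. In skeletal muscle these enzymes meet the oxidant load of contraction and of oxidative fibres.

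The medians of the deposited log2 signals lay between 2.79 and 2.89 per array, and arrays correlated with each other at r = 0.916 to 0.978 over the tested probe sets. The mean signal of 69 background control probe sets averaged 3.66 ± 0.16 in low RFI and 3.61 ± 0.13 in high RFI (SD, n = 10 each). It was highest in low RFI replicates 9, 10 and 7 and in high RFI replicate 9, at 3.83 to 3.90. The tissue was checked against its markers: 10 of 11 skeletal muscle markers lay above the mean background control signal of 3.64, up to 13.85 for ACTA1, while 1 of 6 liver markers did, TTR at 3.69. In bulk tissue, fewer cells of a type and less RNA per cell cannot be told apart. Precision is limited by how many arrays there are.

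The comparison asked whether the muscle of feed-efficient pigs expresses antioxidant genes at another level. None of the 10 genes passed the test: 5 were higher and 5 lower in low RFI, where 50.8% of all represented tested genes were lower. The median difference of the 10 genes was 0.0056 on the log2 scale. The values of the groups overlapped for every gene, and how many probe sets of the whole array overlap in this way was not counted. The differences ran from -0.23 for NFE2L2 to 0.42 for GSR. All differences are low RFI minus high RFI of log2 signals. In limma, with Benjamini-Hochberg adjustment over 33405 probe sets, each of the 10 genes had an adjusted p of 0.998, and 0 probe sets of the whole array were called (0%). A rank test over the same probe sets called 0 as well, with 1158 at an unadjusted p under 0.05 where limma had 1306. At an unadjusted p under 0.05, 1 of 10 genes counted (GSR), where 3.91% of all tested probe sets did and 2.48% were also higher in low RFI, as GSR was. For the brightest probe set of all 10 genes the 95% interval lay inside a 2-fold difference, with bounds between 0.62 and 1.74 as ratios of low over high RFI. How many probe sets of the whole array do so was not counted. Over all tested probe sets the median interval reached 0.26 to either side on the log2 scale. Of the other probe sets, SOD1 probe set 4 reached down to a ratio of 0.56 and the dim SOD1 probe set 5 up to 2.04. SOD3 lay below the mean background control signal, so that its interval need not bound the transcript. Single background control probe sets had means from 1.02 to 7.84, and of the 10 genes only SOD2, GPX3 and PRDX3 had a mean above that span. Whether the intervals of the others bound the transcript was not tested.

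**Figure D1:**
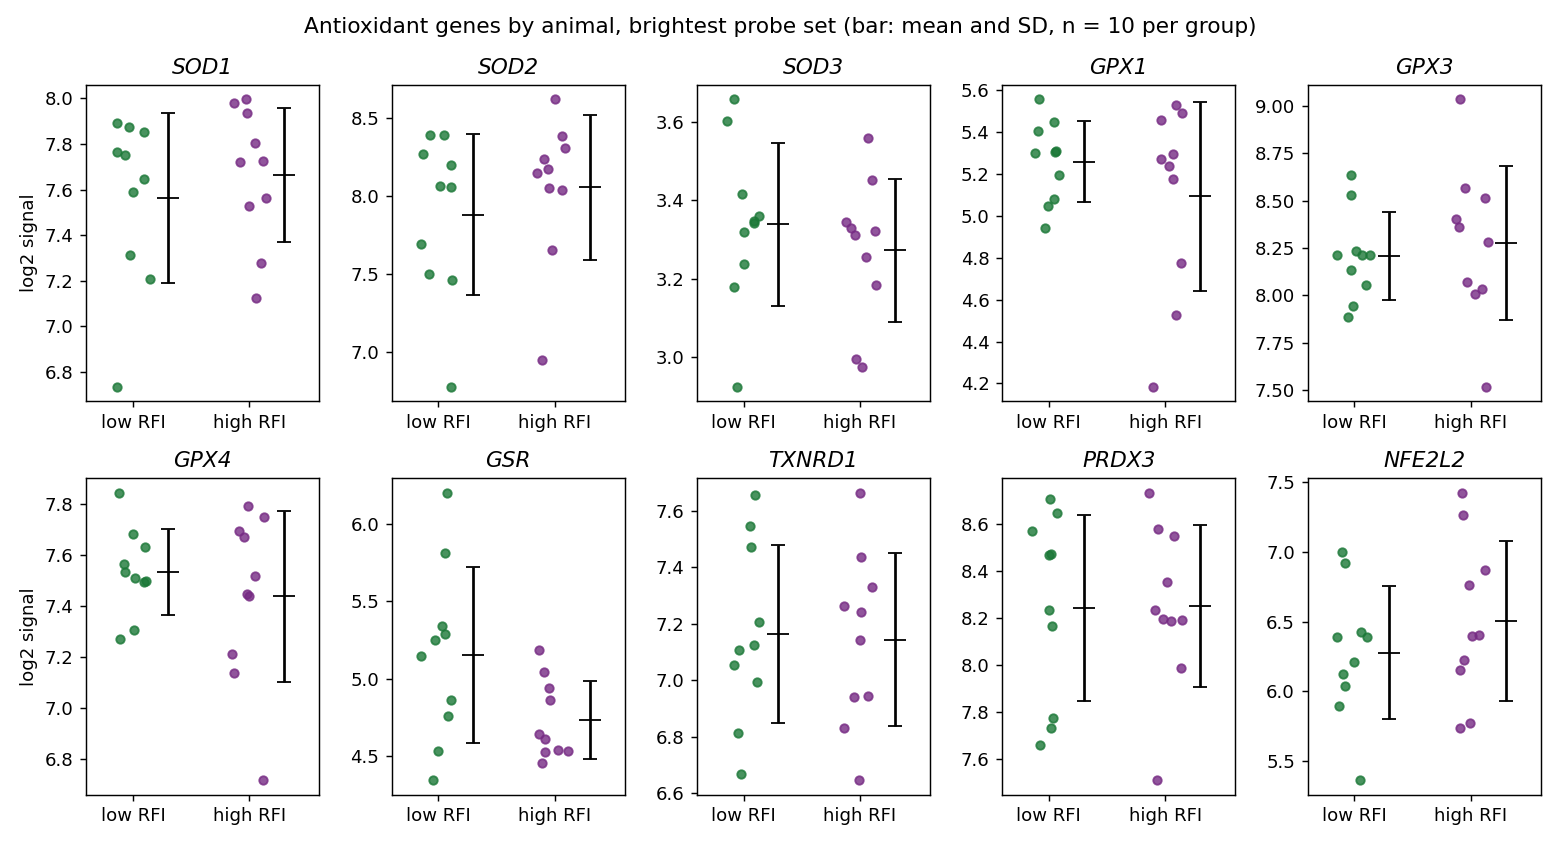
Log2 signal (y axis) of the brightest probe set of each of the 10 antioxidant genes, with 1 point per animal, low RFI in green on the left and high RFI in purple on the right; black bars give the mean and SD (n = 10 each). The groups overlap in every panel, and for GSR 5 low RFI animals lie above the highest high RFI animal at 5.18.

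Among the superoxide dismutases the cytosolic SOD1 read between 6.73 and 7.89 with a median of 7.70 in low RFI, and between 7.12 and 8.0 with a median of 7.72 in high RFI. Low RFI replicate 9 was the lowest of all animals and high RFI replicate 9 the lowest of its group, and otherwise the groups covered the same span. The difference was -0.10 ± 0.15 (SE; 95% interval -0.40 to 0.20). With the background signal as a covariate the difference was -0.0046. Without the 4 arrays of highest background, which include replicate 9 of both groups, it was 0.042.

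SOD1 had 5 probe sets, of which 3 ran together over the animals. Probe set 2 differed by -0.027, probe set 3 by 0.16, probe set 4 by -0.19 and probe set 5, which lay at a mean of 1.74 just under the filter value of 1.75, by 0.40. The mean over all 5 differed by 0.049, with the opposite sign of the brightest. Probe sets 1 and 2 followed each other over the 20 animals (r = 0.838, permutation p = 2e-05, adjusted p = 0.00017 over 17 such pairs; rho = 0.782, permutation p = 1e-04; r = 0.751 without the 2 farthest arrays). Probe set 4 followed probe set 1 (r = 0.648, permutation p = 0.00493, adjusted p = 0.0210; rho = 0.750, permutation p = 0.00024; r = 0.701 without the 2 farthest arrays) and probe set 2 (r = 0.563, permutation p = 0.00758, adjusted p = 0.0258; rho = 0.626, permutation p = 0.00382; r = 0.656 without them). After adjustment for the background signal these 3 values were 0.57, 0.12 and 0.071. Probe set 3 followed neither probe set 1 nor 2, at r = -0.21 to probe set 1 (adjusted p = 0.469) and -0.25 to probe set 2 (adjusted p = 0.441). For probe set 4, low RFI replicate 10 read 3.25 while the other 9 low RFI animals started at 5.40, and without it the difference of that probe set turned to 0.083. Which SOD1 transcript or related sequence each probe set binds was not analysed here.

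Mitochondrial SOD2 ranged from 6.77 to 8.39 with a median of 8.06 in low RFI, and from 6.94 to 8.62 with a median of 8.16 in high RFI. The lowest animal of each group was again replicate 9. The difference was -0.18 ± 0.21 (95% interval -0.60 to 0.25), and -0.038 with the background signal as a covariate. SOD2 varied more between animals than most genes: its SD over 20 arrays was 0.49, above that of 88.9% of the represented genes. A dim probe set 2, below the filter value, differed by -0.036.

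Secreted SOD3 lay at 2.92 to 3.66 with a median of 3.34 in low RFI, against 2.98 to 3.56 with a median of 3.32 in high RFI. The difference was 0.066 ± 0.096 (95% interval -0.13 to 0.26). Its SD over the arrays, 0.19, was smaller than that of most genes, and 11.8% of represented genes varied less.

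GPX1, the cytosolic glutathione peroxidase, ranged from 4.94 to 5.55 with a median of 5.30 in low RFI, and from 4.18 to 5.53 with a median of 5.25 in high RFI. The medians were close, and the 3 lowest animals were all high RFI, among them replicate 10 at 4.18 and replicate 9 at 4.53. The spread was 0.19 in low RFI and 0.45 in high RFI (SD, n = 10 each). The difference was 0.16 ± 0.15 (95% interval -0.15 to 0.47).

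GPX3, the glutathione peroxidase of plasma, covered 7.89 to 8.63 with a median of 8.21 in low RFI, and 7.52 to 9.03 with a median of 8.32 in high RFI. Both extremes were high RFI animals, replicate 2 at the bottom and replicate 6 at the top. The difference was -0.073 ± 0.14 (95% interval -0.37 to 0.22), and it turned to 0.011 when high RFI replicate 6 was left out.

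GPX4, which reduces lipid peroxides in membranes, lay between 7.27 and 7.84 with a median of 7.52 in low RFI, and between 6.72 and 7.79 with a median of 7.48 in high RFI. Here 8 of 10 low RFI animals were above the high RFI median, and high RFI replicate 7 was the lowest. The difference was 0.096 ± 0.12 (95% interval -0.15 to 0.34). Its other 2 probe sets had the same sign, at 0.071 for probe set 2 and 0.20 for probe set 3. Probe sets 1 and 2 ran together over the animals (r = 0.670, permutation p = 0.00079, adjusted p = 0.00448; rho = 0.744, permutation p = 0.00025; r = 0.623 without the 2 farthest arrays).

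GSR, the reductase that returns oxidised glutathione to its working form, had the widest difference. It ranged from 4.34 to 6.20 with a median of 5.20 in low RFI, and from 4.46 to 5.18 with a median of 4.63 in high RFI. Of the 10 low RFI animals 5 were above every high RFI animal, and low RFI replicates 6 and 9 stood highest at 6.20 and 5.81. The mean was 5.15 ± 0.57 in low RFI and 4.73 ± 0.25 in high RFI (SD, n = 10 each). They differed by 0.42 ± 0.18 (95% interval 0.038 to 0.80), or 1.34 as a ratio. In limma the unadjusted p was 0.0325 and the adjusted p 0.998, and the permutation test of this gene alone gave p = 0.0446 (2-sided, unadjusted, 100000 resamples). Across 20 fits that each left out 1 array the difference stayed between 0.30 and 0.51.

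Macrophage markers moved with the GSR signal. Of 11 tested macrophage markers 10 were higher in low RFI, where 50.8% of all represented tested genes were lower. The mean background control signal was exceeded by 9 of the 11. The mean of their standardised values ranged from -0.42 to 1.18 in low RFI and from -0.75 to 0.61 in high RFI. An alternative chosen after seeing the data put that score into the fit, and the GSR difference was then 0.18 ± 0.18. The score itself differed between the groups by 0.53, and whether macrophages have a part in the GSR difference was not tested.

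TXNRD1, the cytosolic thioredoxin reductase, ranged from 6.67 to 7.66 with a median of 7.12 in low RFI, and from 6.65 to 7.66 with a median of 7.19 in high RFI. The spans were nearly the same, and the difference was 0.020 ± 0.14 (95% interval -0.26 to 0.30). Probe set 2 differed by -0.078, although both probe sets ran together over the animals (r = 0.831, permutation p = 2e-05, adjusted p = 0.00017; rho = 0.859, permutation p = 1e-05, the smallest these permutations can give; r = 0.758 without the 2 farthest arrays).

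PRDX3, the peroxiredoxin of the mitochondrial matrix, lay at 7.66 to 8.71 with a median of 8.35 in low RFI, and at 7.51 to 8.73 with a median of 8.21 in high RFI. In both groups a few animals stood low, namely low RFI replicates 10, 7 and 9 and high RFI replicate 9, the 4 arrays of highest background. The difference was -0.0089 ± 0.16 (95% interval -0.34 to 0.32), and 0.13 without those 4 arrays.

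NFE2L2 ranged from 5.36 to 7.0 with a median of 6.30 in low RFI, and from 5.74 to 7.43 with a median of 6.40 in high RFI. The lowest animal of each group was replicate 9, and 3 of 10 low RFI animals lay above the high RFI median. The difference was -0.23 ± 0.22 (95% interval -0.68 to 0.23), and it was -0.10 with the background signal as a covariate. Probe set 2, below the mean background control signal, differed by 0.25 ± 0.18, so the mean of both probe sets was 0.014. The SD of NFE2L2 over the arrays, 0.53, was above that of 91.1% of represented genes.

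**Figure D2:**
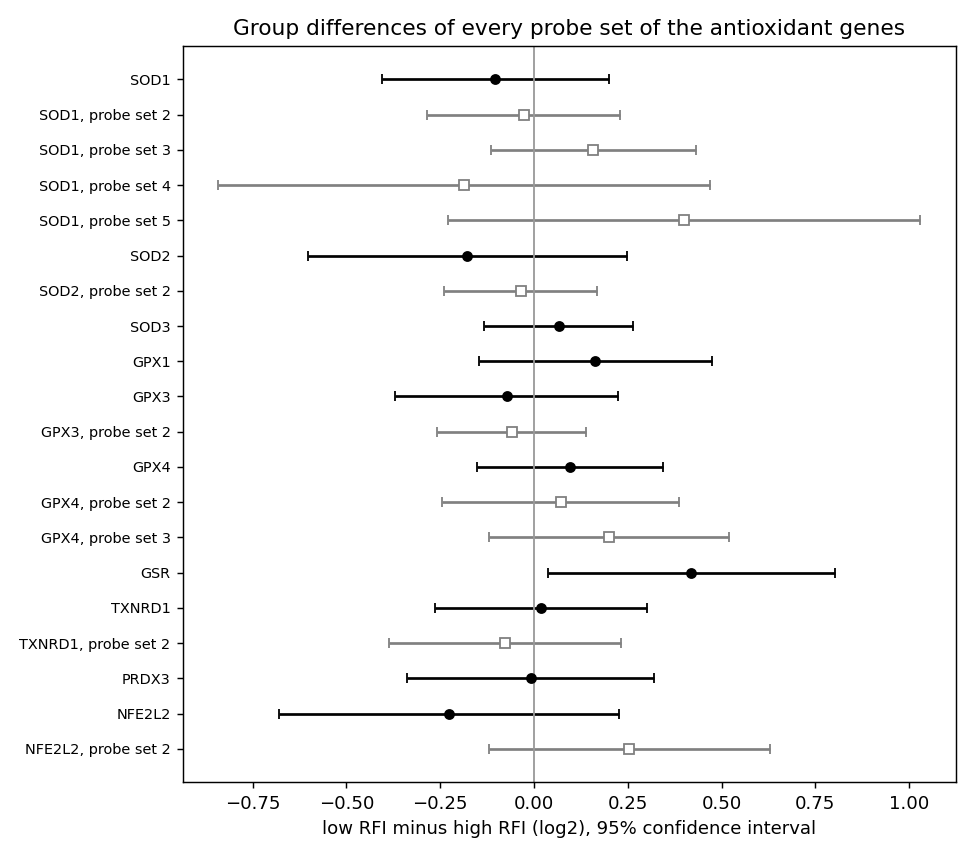
Difference of low RFI minus high RFI in log2 signal (x axis) with its 95% confidence interval for all 20 probe sets of the antioxidant genes (y axis); filled circles are the brightest probe set of each gene and open squares its other probe sets. The interval of GSR, 0.038 to 0.80, is the one that leaves out 0, and probe sets of SOD1, TXNRD1 and NFE2L2 lie on both sides of it.

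The wider pathway gave the same picture. Of 103 tested genes in 8 further lists, 49 were higher and 54 lower in low RFI, with a median difference of -0.0084 where all represented genes had -0.0029, and limma called none after adjustment. At an unadjusted p under 0.05 there were 3 (2.91%, where all tested probe sets had 3.91%), namely TKT, SESN3 and PSTK. CAT and KEAP1 had no probe set under their symbol alone and so could not be analysed.

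Among other superoxide and peroxide enzymes 4 of 6 were higher, with PRDX1, a cytosolic peroxiredoxin, at 0.12 ± 0.093, PXDN, a peroxidase of basement membranes, at 0.13 ± 0.13 with the opposite sign in its other probe set, and GPX7 of the endoplasmic reticulum at 0.063 ± 0.15. In the thioredoxin and glutaredoxin list 10 of 17 were lower. SESN3, a sestrin that restrains growth signalling under stress, had 5.13 ± 0.20 in low RFI and 4.89 ± 0.29 in high RFI (SD, n = 10 each), a difference of 0.24 ± 0.11. Its relative SESN2 differed by 0.29 ± 0.24 and TXNDC17, a thioredoxin-related protein, by -0.14 ± 0.086. SRXN1, which repairs overoxidised peroxiredoxins, was dim and differed by 0.059 ± 0.12, with the opposite sign in 1 of its other 2 probe sets.

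Glutathione synthesis and conjugation had 13 of 20 genes lower. GCLC and GCLM, the catalytic and modifier subunits of the enzyme that starts glutathione synthesis, differed by -0.0067 ± 0.12 and -0.30 ± 0.25, and the second probe set of GCLM had the opposite sign. OPLAH, which opens 5-oxoproline to glutamate, differed by -0.18 ± 0.089, while the dim CHAC2 and GSTA4 differed by 0.16 ± 0.10 and 0.21 ± 0.15. For NADPH supply 4 of 9 genes were higher, and TKT, transketolase of the pentose phosphate pathway, read 6.64 ± 0.34 in low RFI and 6.30 ± 0.42 in high RFI. It differed by 0.35 ± 0.16, with the same sign in its other 2 probe sets. NNT, the proton-driven transhydrogenase of mitochondria, differed by -0.20 ± 0.17 and ALDH1L1 by 0.062 ± 0.087.

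Selenoprotein genes stood at 8 of 14 higher. PSTK, the kinase that prepares the selenocysteine transfer RNA, had 2.11 ± 0.26 in low RFI and 2.39 ± 0.20 in high RFI. It differed by -0.28 ± 0.11, with both means below the mean background control signal. SEPHS2, which makes the selenium donor, differed by 0.14 ± 0.091 and TRNAU1AP by -0.21 ± 0.14. Sources of superoxide and peroxide had 8 of 12 genes higher. The monoamine oxidase MAOA differed by 0.26 ± 0.16, although 3 of its other 5 probe sets had the opposite sign. The dim oxidase DUOX2 differed by 0.20 ± 0.12, with the opposite sign in 1 of its other 3 probe sets, and PAOX, a polyamine oxidase, by 0.16 ± 0.14.

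Of the regulators and partners of NFE2L2, 10 of 13 were lower in low RFI, where 50.8% of all represented tested genes were lower. BACH1, the repressor that competes with NFE2L2 for the same DNA element, differed by -0.29 ± 0.21, FBXL17, a subunit of a ubiquitin ligase, by -0.43 ± 0.22 at a signal below background, PALB2 by -0.25 ± 0.16 and DPP3 by 0.17 ± 0.12. Of 12 further NFE2L2 targets 8 were higher. NQO1, a quinone reductase, differed by 0.14 ± 0.20, HMOX1, heme oxygenase, by 0.0038 ± 0.24, FTH1, the ferritin heavy chain, by 0.069 ± 0.093, UGDH by 0.18 ± 0.20 and the exporter ABCC1 by -0.21 ± 0.12. Of the other 3 probe sets of ABCC1, 1 had the opposite sign. In limma every gene named in these lists had an unadjusted p of 0.0148 or more.

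Across animals the antioxidant genes did not vary as one group. Over 45 pairs of genes the Pearson correlations ranged from -0.55 to 0.81 with a median of 0.036, and 5 pairs passed a permutation test (100000 resamples, 2-sided, Benjamini-Hochberg over the 45 pairs). The 5 pairs joined SOD1, SOD2, PRDX3, NFE2L2 and TXNRD1. SOD1 and PRDX3 correlated at r = 0.807 (permutation p = 3e-05, adjusted p = 0.00135; rho = 0.767, permutation p = 0.00021; r = 0.770 without the 2 farthest arrays), with r = 0.775 within low RFI and 0.877 within high RFI. SOD2 and NFE2L2 correlated at r = 0.767 (permutation p = 6e-05, adjusted p = 0.00135; rho = 0.773, permutation p = 0.00014; r = 0.648 without the 2 farthest arrays), with 0.846 within low RFI and 0.691 within high RFI. SOD1 and SOD2 reached r = 0.802 (permutation p = 0.00011, adjusted p = 0.00165; rho = 0.692, permutation p = 0.00106) and 0.565 without the 2 farthest arrays. SOD2 and PRDX3 reached r = 0.745 (permutation p = 0.00024, adjusted p = 0.0027; rho = 0.657, permutation p = 0.00215) and 0.603 without them. SOD1 and TXNRD1 came last with r = 0.603 (permutation p = 0.00445, adjusted p = 0.0400; rho = 0.723, permutation p = 0.00059), 0.648 without the 2 farthest arrays. Within the groups these last 3 pairs ran from 0.531 to 0.799. The pair of SOD1 and TXNRD1 lost its call when any of 11 single arrays was left out.

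High correlations were frequent for these genes. Over 12208 represented genes the 95th percentile of r was 0.760 with SOD1, 0.833 with SOD2, 0.745 with PRDX3, 0.730 with NFE2L2 and 0.541 with TXNRD1. Of the 5 pairs, SOD1 and PRDX3 lay above the percentile of both genes. SOD1 and SOD2, SOD2 and NFE2L2, and SOD1 and TXNRD1 lay above that of 1 gene and below that of the other, and SOD2 and PRDX3 lay below both, narrowly for PRDX3 (0.7447 and 0.7454).

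Array background moved with these 5 genes. Their correlations with the mean background control signal were -0.860 for SOD1, -0.836 for SOD2, -0.762 for PRDX3, -0.734 for NFE2L2 and -0.660 for TXNRD1 (permutation p from 2e-05 to 0.00152, adjusted p from 0.000533 to 0.0122 over 80 relations; rho from -0.835 to -0.582; r from -0.789 to -0.608 without the 2 farthest arrays). Of the represented genes, 2.97% had a correlation with background at least as low as SOD1, 4.28% one at least as low as SOD2 and 13.5% one at least as low as TXNRD1. Once both genes of a pair were adjusted for the background signal, 0 of 45 pairs passed (smallest adjusted p = 0.470), and the 5 pairs stood at r = 0.46, 0.41, 0.30, 0.30 and 0.094 in the order given. Without the 4 arrays of highest background 0 of 45 passed as well, with SOD1 and PRDX3 at r = 0.562 and SOD2 and NFE2L2 at 0.582 over 16 animals. GPX1, GPX3, GPX4, GSR and SOD3 took part in none of the 5 pairs, and GPX1 and GPX4 ran against each other at r = -0.53 (adjusted p = 0.108; rho = -0.678, adjusted p = 0.0106; -0.53 after adjustment for background). By rho 7 pairs passed, the 5 above, GPX1 with GPX4, and GPX4 with NFE2L2 (rho = -0.602, adjusted p = 0.0395; r = -0.39, adjusted p = 0.226; -0.15 after adjustment for background).

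**Figure D3:**
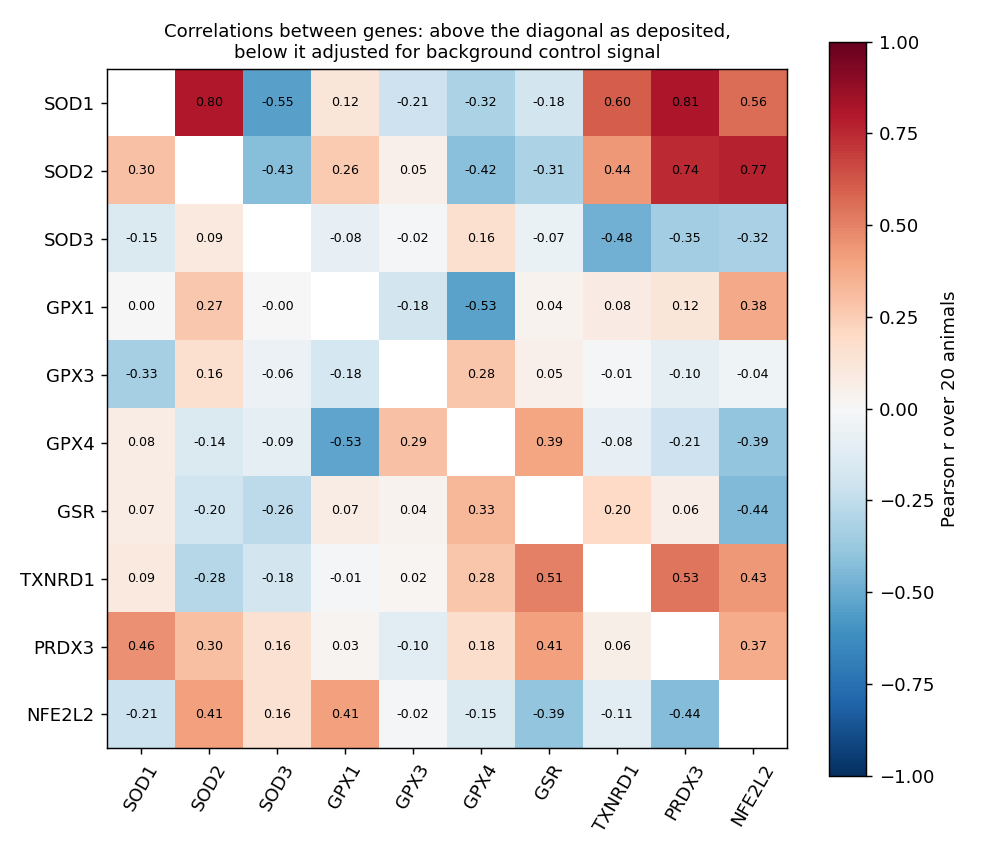
Pearson correlations over 20 animals (colour and printed value, blue negative, red positive) between the 10 antioxidant genes, as deposited above the diagonal and adjusted for the background control signal below it. The block of SOD1, SOD2, PRDX3, NFE2L2 and TXNRD1, up to 0.81 above the diagonal, fades below it, where its values run from -0.44 to 0.46. Over all pairs the values below the diagonal run from -0.53 to 0.51.

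Tissue makeup was compared through the mean standardised signal of marker lists, and 11 of 80 relations passed, 5 of them with background. PRDX3 followed the 14 tested respiratory chain genes most closely, at r = 0.905 (permutation p = 1e-05, the smallest these permutations can give, adjusted p = 0.000533; rho = 0.857, permutation p = 3e-05; r = 0.896 without the 2 farthest arrays). The relation held within low RFI at r = 0.946 and within high RFI at 0.906, and after adjustment for background at 0.830 (adjusted p = 0.0014). Of 12194 other represented genes, 0% had a correlation with this score as high as PRDX3, with or without that adjustment. Without the 4 arrays of highest background, which all lay low for PRDX3, it was 0.767 over 16 animals, with an adjusted p of 0.0504. SOD2 and SOD1 had lower values with the same score, at r = 0.753 (permutation p = 0.00013, adjusted p = 0.00224; rho = 0.708, permutation p = 0.00081) and 0.750 (permutation p = 0.00014, adjusted p = 0.00224; rho = 0.672, permutation p = 0.00159), at 0.744 and 0.779 without the 2 farthest arrays, and at 0.498 and 0.487 after adjustment for background (adjusted p = 0.334 for each).

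SOD2 also followed the slow fibre genes, at r = 0.688 (permutation p = 0.00079, adjusted p = 0.0079; rho = 0.555, permutation p = 0.0127; r = 0.508 without the 2 farthest arrays). Slow fibres are the oxidative, fatigue-resistant fibres of muscle. After adjustment for background the value was 0.755 (adjusted p = 0.00455), and 0.041% of 12198 other genes then had one as high. Within the groups it was 0.832 in low RFI and 0.493 in high RFI, and without low RFI replicate 9 it was 0.582 with an adjusted p of 0.0584. Without the 4 arrays of highest background it was 0.556 with an adjusted p of 0.206.

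GSR followed the macrophage score, at r = 0.664 (permutation p = 0.00129, adjusted p = 0.0115; rho = 0.528, permutation p = 0.0183; r = 0.508 without the 2 farthest arrays). Within low RFI it was 0.711, within high RFI 0.257, and the difference between these was not tested. Leaving out low RFI replicate 6, the highest animal for GSR, took it to 0.544 with an adjusted p of 0.109, and leaving out low RFI replicate 9 to 0.598 with an adjusted p of 0.0526. GPX4 followed the adipocyte markers, at r = 0.613 (permutation p = 0.00334, adjusted p = 0.0243; rho = 0.561, permutation p = 0.0114; r = 0.443 without the 2 farthest arrays), with 0.638 within low RFI and 0.663 within high RFI. That adjusted p rose past 0.05 when any of low RFI replicates 6 and 8 and high RFI replicates 6 and 7 was left out, up to 0.156, and the mean of its 3 probe sets gave r = 0.467 (adjusted p = 0.225). Between the groups, 10 of 10 slow fibre genes and 12 of 14 respiratory chain genes were lower in low RFI, and 13 of 13 fibroblast and matrix genes higher. Of all represented tested genes 50.8% were lower. None of these marker genes was called by limma, and their part in the differences above was not tested. By Spearman's rho the relations of SOD2 with slow fibre genes, GSR with macrophage markers and GPX4 with adipocyte markers had adjusted p = 0.0921, 0.113 and 0.0909. The share of other genes with a correlation as high was 0.27% for GSR and 0.46% for GPX4. After adjustment for background the 2 relations stood at 0.641 for GSR (adjusted p = 0.0595) and 0.570 for GPX4 (adjusted p = 0.139). Without the 4 arrays of highest background they were 0.597 and 0.646 (adjusted p = 0.184 for each). No relation of GPX1, GPX3 or SOD3 passed the test.

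**Figure D4:**
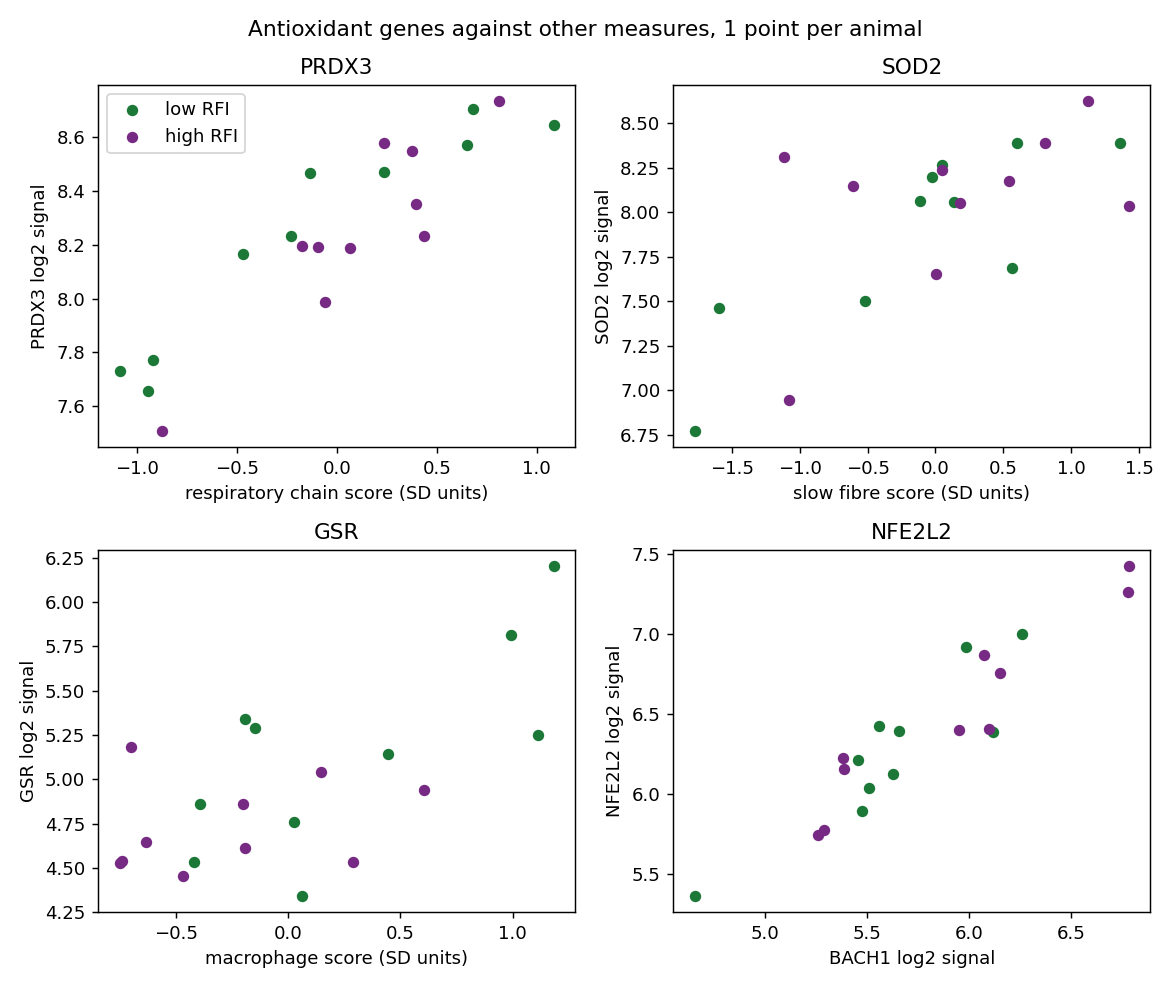
Log2 signal (y axes) of PRDX3, SOD2, GSR and NFE2L2 against the respiratory chain, slow fibre and macrophage scores (mean of standardised gene signals, in SD units) and the log2 signal of BACH1 (x axes), with 1 point per animal, low RFI in green and high RFI in purple. PRDX3 and NFE2L2 follow their measure closely (r = 0.905 and 0.934), and the 2 highest GSR values, 6.20 and 5.81, are low RFI animals.

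For each gene the most similar patterns were sought in the 5137 genes whose mean reached 5, by the correlation over 20 animals after group and background signal were taken out. For PRDX3 the closest was NDUFAB1, an acyl carrier protein of respiratory complex I (r = 0.92), followed by EIF1B (0.88). For NFE2L2 it was BACH1 (0.87), followed by TET2 (0.84), an enzyme that oxidises methylated cytosine. For SOD2 RSC1A1 and NOL11 came first (0.88 and 0.87), for GPX4 VPS11 and TMEM11 (0.87 and 0.86), and for GSR WSB1 and VDAC2 (0.86 and 0.81), the last a channel of the outer mitochondrial membrane. GPX3 ran with PTPN9 (0.83) and COL6A3 (0.78), a chain of collagen VI. SOD1 ran with C1orf174 and TTLL1 (0.77 and 0.76), TXNRD1 with SEC61A1 and RERE (0.75 and 0.73), GPX1 with PAPOLA and TPP2 (0.75 and 0.74) and SOD3 with ARL6IP5 and DOK7 (0.72 and 0.71). These values hold after that adjustment, are the highest of a search and carry no test. As deposited, SOD1 stood at 0.32 with C1orf174 and 0.25 with TTLL1. SOD3 stood at -0.29 with ARL6IP5, the opposite sign, and at 0.76 with DOK7. GSR, TXNRD1 and GPX1 stood at 0.44 to 0.56 with theirs, and the remaining genes at 0.70 to 0.96.

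NFE2L2 and its competitor BACH1 correlated at 0.934 as deposited, with 0.899 within low RFI and 0.954 within high RFI. Such a value was not particular to BACH1, as TET2 correlated with NFE2L2 at 0.931 as deposited. The other 2 BACH1 probe sets gave 0.816 and 0.776 with the brightest probe set of NFE2L2. They were dim, with means of 3.74 and 3.25 where the mean background control signal was 3.64. After group and background signal were taken out, their values were 0.70 and 0.55. The dim probe set 2 of NFE2L2 gave 0.030 to 0.34 with the 3 BACH1 probe sets. Targets of NFE2L2 were set against it after the data were seen. Among these 5, GCLM followed NFE2L2 at r = 0.623 (permutation p = 0.00341, adjusted p = 0.017 over 5; rho = 0.771, permutation p = 0.00014; r = 0.753 without the 2 farthest arrays) and GCLC at r = 0.528 (permutation p = 0.0161, adjusted p = 0.0401; rho = 0.457, permutation p = 0.0441; r = 0.470 without them). Both lay below 0.730, the 95th percentile of r with NFE2L2 over 12208 represented genes. Within low and high RFI the values were 0.460 and 0.741 for GCLM and 0.705 and 0.466 for GCLC. After adjustment for background they stood at 0.329 and 0.337 (adjusted p = 0.194 for each), and GCLC also lost its call when any of 7 single arrays was left out. HMOX1, SRXN1 and NQO1 had r = 0.20, 0.19 and -0.33 (adjusted p = 0.425, 0.425 and 0.261), and NQO1 stood at -0.62 after adjustment for background (adjusted p = 0.0164). Of the antioxidant genes that NFE2L2 is known to switch on, TXNRD1 gave r = 0.43 and GSR r = -0.44 with it (adjusted p = 0.192 for each over the 45 pairs).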

How the data were processed

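For each of 20 arrays the authors deposited 1 log2 signal for every probe set. That the scale is log2 was judged by the span of the values. The submitters' processing notes name GCOS 1.1.1. Summarisation of probes, background correction and normalization before deposit are steps not given in the sources used here. Groups came from the RFI label, and replicate numbers only name animals.

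Control probe sets (123 of 47845) were left out, and probe sets above the 30th percentile of the mean (1.75) were kept, 33405 in all. Whether signals near background are compressed was not tested. Names came from the platform annotation, with 428 outdated symbols updated through RefSeq synonyms; 26426 probe sets had a symbol. Groups were compared with limma 3.58.1 in R 4.3.3 (lmFit and eBayes, 2-sided, Benjamini-Hochberg, threshold 0.05). Correlations used permutation tests with 100000 resamples in Python 3.11.15. Both were tested on simulated data. A score is the mean of standardised signals of a marker list.

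The genes and lists were chosen with earlier results of these data known. The text names all 10 antioxidant genes, up to 3 genes of smallest p in each further list, NQO1, HMOX1, GCLM, GCLC, SRXN1 and BACH1 always, and the 2 most similar genes for each antioxidant gene. CAT and KEAP1 belong to that rule but had no probe set under their symbol alone. Sequences and genomic positions were not analysed here. Alternatives covered normalization, the background signal as a covariate, array weights, filters, other probe sets, Spearman's rho, single groups and left-out arrays. The macrophage covariate and the NFE2L2 targets were added after the data were seen.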

Additional observations from a re-analysis of the deposited data

Results flagged for a closer look

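In 7 of 100 groups of 10 animals, 1 animal lay apart from the rest by Dixon's test at its 95% critical value of 0.466, and chance alone is set to give this in 5% of groups. For SOD1 probe set 4, low RFI replicate 10 read 3.25, with the next low RFI animal at 5.40. For the dim probe set 2 of GPX3, replicate 9 was the highest of its group in both, at 1.51 in low RFI (next 1.26) and 1.78 in high RFI (next 1.33). BACH1 was lowest in low RFI replicate 9, at 4.65 against 5.45 in the next animal. The dim FBXL17 read 1.21 in low RFI replicate 10 (next 1.80) and 3.81 in high RFI replicate 5 (next 2.76). SESN2 reached 6.08 in high RFI replicate 5, with the next high RFI animal at 4.94. Low RFI replicates 9 and 10 and high RFI replicate 9 are among the 4 arrays of highest background, and the part of background in these values was not tested.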

How the results depend on the processing

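No paired analysis was possible because the labels give the groups no shared replicate numbers. Of 47 differences, 39 kept their sign under every alternative other than leaving out single arrays, and none of 389 such values passed the threshold. The call count of limma was 1 without the 4 arrays of highest background and 1 without high RFI replicate 9, neither an antioxidant gene, and 0 under each other alternative. SOD1 turned to 0.042 without those 4 arrays and 0.049 as the mean of all probe sets, where TXNRD1 was -0.029 and NFE2L2 0.014. PRDX3 turned to 0.035 with quantile and 0.021 with cyclic loess normalization, 0.089 with the background covariate, 0.13 without the 4 arrays, 0.025 with array weights and 0.095 with the macrophage covariate. In the order quantile normalization, background covariate, without the 4 arrays and array weights, SOD1 probe set 2 turned to 0.0022, 0.044, 0.12 and 0.018, and GCLC to 0.0078, 0.032, 0.030 and 0.023. SOD1 probe set 4 was 0.090 without the 4 arrays, and HMOX1 -0.0019 with arrays centred on their medians. With single arrays left out, differences that changed sign ranged from -0.16 to 0.011 for GPX3, -0.035 to 0.078 for TXNRD1, -0.091 to 0.056 for PRDX3, -0.075 to 0.035 for SOD1 probe set 2, -0.32 to 0.083 for SOD1 probe set 4, -0.043 to 0.073 for GCLC and -0.090 to 0.12 for HMOX1. The 5 called pairs became 0 with the background covariate, 0 without the 4 arrays, 2 with the mean of all probe sets, 0 within low RFI, 1 within high RFI and 7 by Spearman's rho, and 4 to 7 with single arrays left out. The 11 called relations became 2 with the background covariate, 0 without the 4 arrays, 2 within low RFI and 7 within high RFI. By Spearman's rho 7 passed, and 9 to 12 with single arrays left out. The background covariate fit held 70 relations and left out those with background itself, which were 5 of the 11. The 2 called NFE2L2 targets became 1 with centred arrays, cyclic loess, the background covariate (then NQO1), without the 4 arrays or by Spearman's rho, 0 with quantile normalization, 0 within low RFI and 0 within high RFI, and 1 to 2 with single arrays left out. No correlation reversed in 155 values, and 77 no longer passed. Fits within 1 group or without the 4 arrays hold fewer animals; the cause of the other changes was not tested.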
